A study of Mus musculus with 12 samples.

Results

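Cilp, Comp, Thbs4, Tnmd, Scx, Mkx, Chad, Prg4 and Tnc are genes known from tendon, ligament and cartilage that were measured here in whole calf muscle. The 9 genes were chosen by symbol, with the large difference in Cilp between the groups already known, and every probe set that the platform annotation gives to exactly 1 of them was taken. That gave 11 probe sets of the 45101 on the array: Scx and Tnc have 2 each and the other genes 1 each. Of the 9 genes, 5 were bright enough to enter the test across all genes (Cilp, Comp, Thbs4, Tnmd and Prg4), and 4 fell below the limit for dim genes (Scx, Mkx, Chad and Tnc). Because the difference between the groups helped to choose the genes, that difference is given for each of them as a description, with no p-value.

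The samples were gastrocnemius muscles, lateral and medial portions together, of 12 male mice, aged 79 to 86 days (84 on average) and taken from generation 37, each hybridised to its own Affymetrix array. The 6 mini-muscle mice came from line 3 and the 6 regular-muscle mice from line 8, and both are closed lines bred for high voluntary wheel running. Mini-muscle is a heritable phenotype of small hindlimb muscles. An array holds RNA of both limbs of its animal in the mini-muscle group and of 1 limb in the regular-muscle group, so that phenotype, line and limb pooling divide the arrays in the same way and cannot be told apart. The values are MAS5 intensities, a single brightness per probe set, given here on the log2 scale, where 1 unit is a doubling. A probe set's level is set against its own level on other arrays and not against another probe set's.

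Tendon is a rope of type I collagen fibrils laid down by tenocytes, cells that depend on the transcription factors scleraxis (Scx) and Mohawk (Mkx) and that carry the membrane protein tenomodulin (Tnmd). Comp and Thbs4 are pentameric glycoproteins of the thrombospondin family that bind collagens in tendon and cartilage, and Thbs4 is also made by muscle. Chondroadherin (Chad) is a leucine-rich repeat protein of cartilage, lubricin (Prg4) coats joint and tendon surfaces, and tenascin-C (Tnc) is a matrix protein of tendon and of the junction between muscle and tendon. Cilp, the cartilage intermediate layer protein, is a secreted matrix protein of the middle zone of articular cartilage that binds TGF-beta and IGF1 and is also made by fibroblasts of other tissues.

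All 10 muscle fibre markers examined were above the limit for dim genes, and creatine kinase (Ckm) had a mean log2 intensity of 17.31. The limit is the median of all gene means and not a detection call, so a probe set below it is dim and not shown to be without signal. The cartilage markers Col2a1, Acan and Sox9 lay below it, and they are among 22 of 29 listed cartilage genes that did. Of the tendon cell markers, Scx and Mkx lay below it and Tnmd above it. One array stood apart for several of the 9 genes. Regular-muscle replicate 4 had the highest Cilp and the lowest Tnmd, Mkx and dimmer Scx probe set of its group. Over all genes it correlated with the other arrays of its group at 0.954 to 0.963. Its lowest value was also the lowest among all pairs within a group, where the highest was 0.974, and pairs of arrays from different groups had 0.924 to 0.948. On the first principal component (37.1% of the variance) it lay at 14.8, the regular-muscle array nearest to the mini-muscle arrays (-22.2 to -17.9, against 14.8 to 23.9). Results that rest on this array are given with and without it.

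The promoters of the gene that was higher and of a pair that were lower are shown to set their sequences side by side. They are the 250 bases upstream of the annotated start, 5′ to 3′ on the gene's own strand, from RefSeq (mouse build GRCm38.p6), and capitals mark the E-box CANNTG, the motif class bound by basic helix-loop-helix factors such as scleraxis. E-boxes were searched as the letters CANNTG, which read the same on both strands. The Cilp window is chr9:65264930-65265179 on the plus strand, the Thbs4 window chr13:92794819-92795068 on the minus strand and the Tnmd window chrX:133850758-133851007 on the plus strand.
Cilp: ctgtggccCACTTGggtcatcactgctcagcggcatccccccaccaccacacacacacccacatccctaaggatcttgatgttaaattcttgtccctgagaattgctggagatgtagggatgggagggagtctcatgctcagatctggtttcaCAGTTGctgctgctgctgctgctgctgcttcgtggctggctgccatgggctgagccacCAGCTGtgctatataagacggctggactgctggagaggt
Thbs4: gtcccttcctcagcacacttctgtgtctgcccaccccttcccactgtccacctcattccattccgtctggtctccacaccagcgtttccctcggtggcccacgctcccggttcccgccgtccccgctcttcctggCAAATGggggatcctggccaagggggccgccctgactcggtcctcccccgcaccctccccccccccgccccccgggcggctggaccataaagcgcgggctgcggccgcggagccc
Tnmd: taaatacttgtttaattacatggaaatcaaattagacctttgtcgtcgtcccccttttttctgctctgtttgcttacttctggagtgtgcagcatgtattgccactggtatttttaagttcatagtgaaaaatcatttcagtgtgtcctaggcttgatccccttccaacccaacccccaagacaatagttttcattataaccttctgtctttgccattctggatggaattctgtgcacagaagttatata
The Cilp window holds 3 E-boxes, starting 242, 97 and 39 bases before the start. The Thbs4 window holds 1, starting 115 bases before it, and the Tnmd window holds 0. Chad, with a window at chr11:94564797-94565046 on the plus strand, holds 1, starting 49 bases before its start. Of 32851 windows of the same length, 66.2% hold at least 1 E-box, 31.8% at least 2 and 12.2% at least 3. A match describes letters in the window and shows no binding. Tnc, whose groups overlapped, has a pair of windows for its annotated starts, and these hold 2 and 3 E-boxes. The Tnc windows overlap each other, and the 2 E-boxes of the one are among the 3 of the other. Windows were used for 5 of the 9 genes. No window was found for Comp (chromosome 8), Scx (chromosome 15) and Prg4 (chromosome 1). None was taken for Mkx, so nothing is said of its promoter. Tnc lies on chromosome 4.

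Cilp was the only one of the 9 genes that was higher in mini-muscle with groups that did not overlap. Its log2 intensity in the 6 mini-muscle arrays ran from 14.27 to 15.36 with a median of 14.83, and in the 6 regular-muscle arrays from 11.06 to 13.31 with a median of 11.35. The lowest mini-muscle array lay above the highest regular-muscle array, which was replicate 4, while the other 5 regular-muscle arrays lay between 11.06 and 11.84. The group means were 14.81 ± 0.44 and 11.66 ± 0.86 (SD, n = 6 each), a difference of 3.14 (SE 0.30) or 8.84-fold. In intensity units the geometric means were 28698 and 3245. Without regular-muscle replicate 4 the difference was 3.47, and leaving out each array in turn gave 3.02 to 3.47. In whole muscle, a change in the number of cells of a type and a change in RNA per cell cannot be told apart, for this gene or for those that follow.

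**Figure D1:**
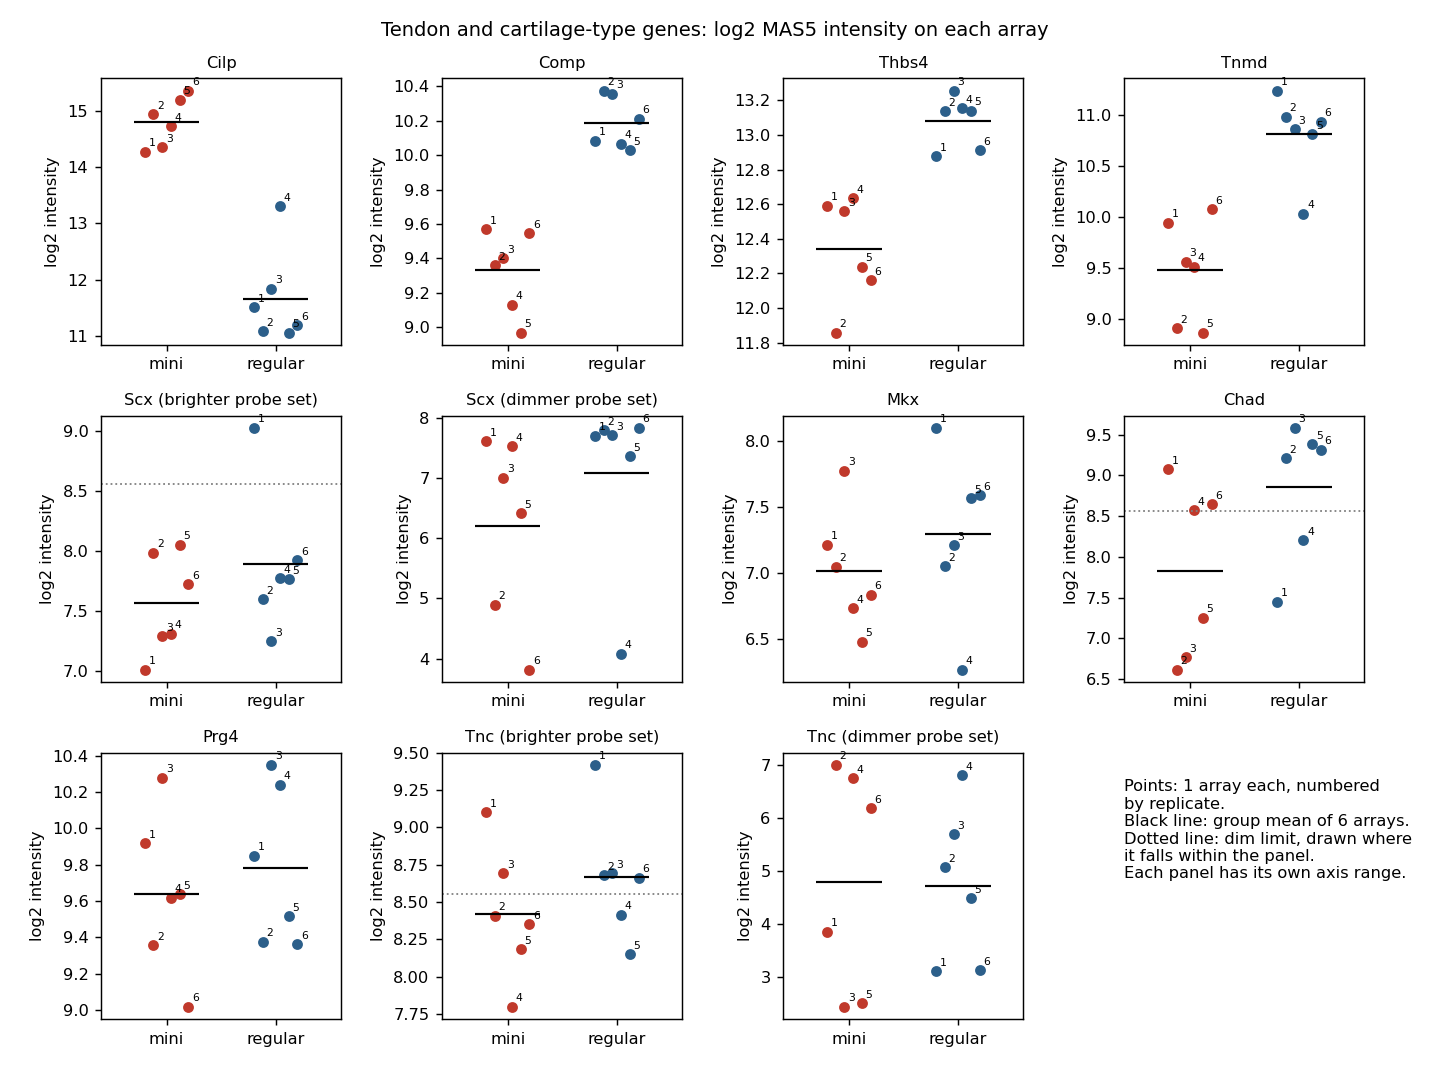
Log2 MAS5 intensity (vertical axis, its own range in each panel) of the 11 probe sets on each of the 6 mini-muscle (red) and 6 regular-muscle (blue) arrays, numbered by replicate, with the group mean as a black line and the limit for dim genes (8.56) dotted where it falls in the panel. Cilp is higher on every mini-muscle array (14.27 to 15.36) than on any regular-muscle array (11.06 to 13.31), Comp and Thbs4 are lower on every one, and the dimmer probe sets overlap.

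The pair of thrombospondin-family proteins were both lower in mini-muscle, and their groups did not overlap. Comp, the cartilage oligomeric matrix protein, had a log2 intensity of 8.97 to 9.57 with a median of 9.38 in mini-muscle and of 10.03 to 10.37 with a median of 10.15 in regular muscle. Every mini-muscle array was below every regular-muscle array, and regular-muscle replicate 4, at 10.07, lay inside the range of its group. The means were 9.33 ± 0.24 and 10.19 ± 0.15 (SD, n = 6 each), a difference of -0.86 (SE 0.14), or 1.81-fold lower. Leaving out each array in turn gave -0.90 to -0.78.

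Thbs4, the thrombospondin of tendon and muscle, ran from 11.86 to 12.63 with a median of 12.40 in mini-muscle and from 12.88 to 13.26 with a median of 13.14 in regular muscle. Its groups did not overlap either, and regular-muscle replicate 4 (13.15) lay near the median of its group. The means were 12.34 ± 0.31 and 13.08 ± 0.15 (SD, n = 6 each), a difference of -0.74 (SE 0.12), or 1.67-fold lower, and -0.80 to -0.64 with each array left out in turn. The spread of Comp and Thbs4 among the regular-muscle arrays was the smallest of the 9 genes' (SD 0.15 each).

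Among the genes of the tendon cell itself, tenomodulin was lower in mini-muscle. Tnmd ran from 8.87 to 10.08 with a median of 9.54 in mini-muscle and from 10.03 to 11.24 with a median of 10.90 in regular muscle. The groups met at a single point: regular-muscle replicate 4 (10.03) was just below mini-muscle replicate 6 (10.08), and the other 5 regular-muscle arrays lay between 10.81 and 11.24, above all mini-muscle arrays. The means were 9.48 ± 0.50 and 10.81 ± 0.41 (SD, n = 6 each), a difference of -1.33 (SE 0.22), or 2.51-fold lower. Without regular-muscle replicate 4 it was -1.49, and leaving out each array in turn gave -1.49 to -1.21.

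The regulators of tendon cells gave dim signals whose groups overlapped. For Scx, the brighter probe set ran from 7.01 to 8.05 (median 7.52) in mini-muscle and from 7.25 to 9.03 (median 7.77) in regular muscle, a difference of -0.33 (SE 0.36). Its dimmer probe set ran from 3.82 to 7.61 (median 6.71) in mini-muscle and from 4.08 to 7.83 (median 7.70) in regular muscle, a difference of -0.87 (SE 0.77). In the latter, regular-muscle replicate 4 was at 4.08 and the other 5 regular-muscle arrays were between 7.36 and 7.83, and the difference was -1.47 without it. The pair of Scx probe sets did not put the arrays in the same order: the array with the lowest value in the dimmer probe set among the regular-muscle arrays was at 7.77, the median, in the brighter one.

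Mkx, a homeobox factor, ran from 6.48 to 7.78 (median 6.95) in mini-muscle and from 6.27 to 8.10 (median 7.39) in regular muscle. Its difference was -0.28 (SE 0.43), smaller than its standard error, and regular-muscle replicate 4 was the lowest of all 12 arrays. Leaving out each array in turn gave -0.49 to -0.12.

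Of the cartilage and joint proteins, Chad had the widest spread. It ran from 6.62 to 9.07 with a median of 7.91 in mini-muscle and from 7.45 to 9.58 with a median of 9.26 in regular muscle. The means were 7.82 ± 1.07 and 8.86 ± 0.84 (SD, n = 6 each), a difference of -1.04 (SE 0.46), and 3 mini-muscle arrays (replicates 1, 4 and 6, at 8.57 to 9.07) lay inside the regular-muscle range. Its mean over all arrays, 8.34, was below the limit of 8.56, so it did not enter the test across genes.

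Prg4, the lubricant of joint and tendon surfaces, ran from 9.02 to 10.28 (median 9.63) in mini-muscle and from 9.36 to 10.35 (median 9.68) in regular muscle. Its groups overlapped almost wholly, with a difference of -0.14 (SE 0.22). The groups of Tnc overlapped as well. Its brighter probe set ran from 7.80 to 9.10 (median 8.38) in mini-muscle and from 8.15 to 9.42 (median 8.67) in regular muscle, a difference of -0.25 (SE 0.27). Its dimmer probe set, between 2.43 and 7.01 in mini-muscle (median 5.02) and between 3.10 and 6.82 in regular muscle (median 4.78), differed by 0.07 (SE 0.92) and turned sign when single arrays were left out (-0.37 to 0.54).

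**Figure D2:**
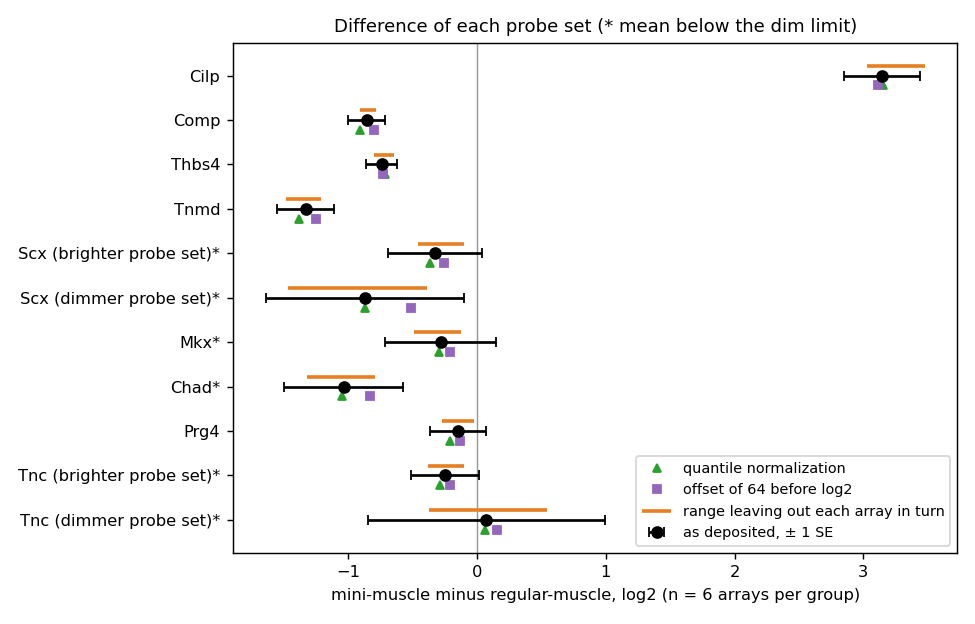
Difference in log2 intensity, mini-muscle minus regular muscle (horizontal axis, 6 arrays per group), of each of the 11 probe sets: black points with bars of 1 SE are the values as deposited, green and purple marks the values after quantile normalization or with an offset of 64, and orange lines the range when each array is left out in turn. Cilp stands at 3.14, Comp, Thbs4 and Tnmd at -0.86, -0.74 and -1.33, and asterisks mark probe sets with a mean below the limit for dim genes.

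Across the 9097 genes above the limit for dim genes, limma called 26.7% at an adjusted p under 0.05, 14.9% higher and 11.8% lower in mini-muscle, and 13.0% had groups that did not overlap. Of the 5 genes described here that were tested, 4 were called, 1 of them higher (Cilp) and 3 lower (Comp, Thbs4 and Tnmd), and Prg4 was not called. Groups did not overlap for 3 of the 5 (Cilp, Comp and Thbs4). Nothing is read from these counts, since the contrast was part of the choice of genes. Of the genes left out as dim, Tnc was nearest to the limit of 8.56, with a mean of 8.55. The median difference over all genes tested was 0.03. The counts of 1 higher and 3 lower came out with the same genes under all 20 alternative settings tried, which included leaving out regular-muscle replicate 4.

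Within a group, where the contrast between groups plays no part, the 9 genes did not vary together in a way that passed correction. Tnmd and Cilp were each set against the other genes over the 6 arrays of each group, 30 relations in all, with exact permutation tests over the 720 pairings. An unadjusted p under 0.05 was found for 3 relations and an adjusted p under 0.05 for 0 of them, with a smallest adjusted p of 0.389. With 6 arrays the smallest p that the pairings can give is 0.0014. Tnmd had a Pearson correlation above 0 with 5 of the 8 other genes in mini-muscle and with 5 of 8 in regular muscle. Cilp did so with 1 of 8 in mini-muscle and 2 of 8 in regular muscle. Without regular-muscle replicate 4 the regular-muscle counts were 6 of 8 for Cilp and 5 of 8 for Tnmd, so that the low count for Cilp there rests on that array.

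Some of the strongest relations turned sign without 1 or 2 arrays and others kept theirs. In regular muscle Tnmd and Mkx had r = 0.89 (two-sided exact permutation p = 0.026, adjusted 0.389) and rho = 0.60 (p = 0.242, adjusted 0.604). Their r was 0.64 without replicate 4 but -0.51 without replicates 1 and 4, so that it rests on those arrays. Tnmd and Cilp had r = -0.85 in regular muscle (exact permutation p = 0.114, adjusted 0.421) and rho = -0.26 (p = 0.658). That r was 0.18 without replicate 4 and -0.23 without replicates 1 and 4. In mini-muscle Tnmd and Comp had r = 0.74 (exact permutation p = 0.106, adjusted 0.421) and rho = 0.89 (p = 0.033, adjusted 0.525). Without replicate 5, the array farthest from the Tnmd median, r was 0.56. Without replicates 2 and 5, the farthest pair, it was 0.85. Cilp and Scx had r = 0.83 in mini-muscle (exact permutation p = 0.062, adjusted 0.421) and rho = 0.83 (p = 0.058). Here r was 0.73 without replicate 1 and 0.88 without the pair of arrays farthest from the Cilp median. Cilp and Prg4 had r = -0.85 in mini-muscle (exact permutation p = 0.036, adjusted 0.389; rho = -0.77, p = 0.103) and 0.77 in regular muscle (exact permutation p = 0.039, adjusted 0.389; rho = 0.71, p = 0.136). The signs were the same without the arrays farthest from the Cilp median, at -0.77 and 0.86. The difference between these correlations was not tested.

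**Figure D3:**
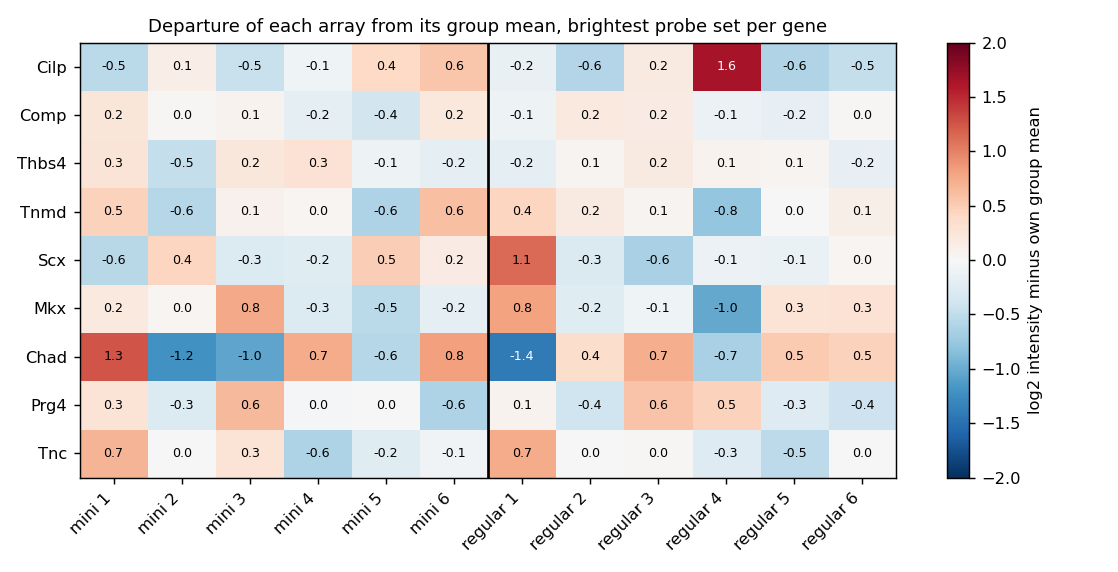
Departure of each array (columns) from the mean of its own group, in log2 intensity (colour and printed number), for the brightest probe set of each of the 9 genes (rows). Regular-muscle replicate 4 holds the highest Cilp and the lowest Tnmd and Mkx of its group, and Chad varies most from array to array.

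The genes whose levels followed Cilp and Tnmd most closely from array to array were looked up over all 12 arrays after each group's mean was subtracted. For Cilp they were Sox4, a transcription factor, at r = 0.90, Polr1a, a subunit of RNA polymerase I, at 0.90, Dynll1, a dynein light chain, at 0.89, Klhl30 at 0.88 and Bcl2, an inhibitor of cell death, at 0.88. Without regular-muscle replicate 4 the correlations were 0.73, 0.69, 0.85, 0.64 and 0.68 in that order. For Tnmd they were Col6a1, a type VI collagen chain, at 0.92, Mettl5 at 0.88, Edc4 at 0.87, Ss18l1 at 0.87 and Emp1 at 0.87, and without that array 0.87, 0.82, 0.86, 0.89 and 0.84. All values on an array share its scaling, and these are the highest of 9097 genes, so they are given as a description only.

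Other genes of tendon and fibrous matrix were mostly lower in mini-muscle or not called. Of 34 such genes, listed from general knowledge but with earlier results of these data known, 28 were tested: 14 fell, 1 rose and 13 were not called, with a median difference of -0.44 against 0.03 over all genes tested. The range of the list's summed level was 15.84 to 16.40 in mini-muscle and 16.49 to 16.97 in regular muscle, without overlap. Over all genes tested, 11.8% were called lower. The count of lower genes in the list was also 14 without regular-muscle replicate 4. The fibrillar collagen of tendon was among them. Col1a1, a chain of type I collagen, ran from 9.84 to 11.06 in mini-muscle and from 11.52 to 12.45 in regular muscle, a fall of 2.68-fold (log2 -1.42, SE 0.18; limma adjusted p = 1.35e-05). Col1a2, the other chain, ran from 11.78 to 12.92 against 12.89 to 13.87 (log2 -1.04, SE 0.17; limma adjusted p = 0.000147), but was at -0.49 and not called when all its probe sets were averaged (adjusted p = 0.427).

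The small proteoglycans that space the collagen fibrils were divided. Fibromodulin (Fmod) ran from 10.08 to 11.96 in mini-muscle and from 12.38 to 12.89 in regular muscle and fell 2.98-fold (log2 -1.57, SE 0.23; limma adjusted p = 6.26e-05), and its 5 other probe sets gave -1.70 to -1.15. Decorin (Dcn) fell by 0.85 on the log2 scale (SE 0.15; limma adjusted p = 0.000279), though a dim second probe set gave 0.53 and the mean of its probe sets was -0.16 and not called (adjusted p = 0.767). Keratocan (Kera) was at -0.91 and fell (limma adjusted p = 0.004). Dermatopontin (Dpt), a matrix protein that is not a proteoglycan, was at -0.94 and fell too (limma adjusted p = 0.000308). Biglycan (Bgn, -0.17), lumican (Lum, 0.07) and asporin (Aspn, -0.08) were not called. These last genes outside the smallest p-values are named after their values were seen. Egr1, a transcription factor that responds to load in tendon and to much else, was the single gene of the list that rose (0.57, SE 0.20; limma adjusted p = 0.0426), but it was not called on leaving out mini-muscle replicate 1, 2, 4, 5 or 6 or regular-muscle replicate 1, 2 or 5, and after quantile normalization.

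The genes listed for cartilage, not all of them specific to it, gave for the most part dim signals in these muscles. Of 30 cartilage genes besides the 9, 29 were represented on the array by a probe set with 1 gene and 22 of these were below the limit for dim genes. Col2a1, the collagen of cartilage, differed by 0.50 (SE 0.56), the proteoglycan aggrecan (Acan) by -0.52 (SE 0.43) and the cartilage regulator Sox9 by 1.33 (SE 0.78), each with dim signals. The other probe sets of Sox9 gave 0.11 (SE 0.81) and 0.47 (SE 0.74). Of the 7 tested, 2 rose, 1 fell and 4 were not called, with a median of -0.18. Over all genes tested, 14.9% were called higher and 11.8% lower. Frzb, a secreted inhibitor of Wnt signalling, rose 3.05-fold (log2 1.61, SE 0.24; limma adjusted p = 6.19e-05), from 9.07 to 10.14 in regular muscle to 10.26 to 11.94 in mini-muscle. Wwp2, a ubiquitin ligase whose gene hosts a microRNA of cartilage, rose by 0.57 (SE 0.17, limma adjusted p = 0.0159). Its other probe sets, all below the limit for dim genes, went in both directions, from -1.24 to 1.14. Sox6, which acts with Sox9 in cartilage and also controls fibre type in muscle, fell 2.0-fold (log2 -1.0, SE 0.16; limma adjusted p = 0.000138), and its 3 other probe sets gave smaller differences of -0.65, -0.60 and -0.22.

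Few relatives of the 9 genes were bright enough to test. Of 18 genes listed as relatives, 6 were tested: 0 rose, 3 fell and 3 were not called. Over all genes tested, 14.9% were called higher and 11.8% lower, and 6 genes are too few to set against those shares. The list also held Has1 and Has2, which are not of the same families and were dim. Thbs2, a thrombospondin of fibroblasts that is also in the tendon list, ran from 8.92 to 9.62 in mini-muscle and from 9.82 to 10.49 in regular muscle and fell 1.90-fold (log2 -0.92, SE 0.16; limma adjusted p = 0.000303). Tenascin-X (Tnxb) fell 1.66-fold (log2 -0.73, SE 0.12; limma adjusted p = 0.000215) and prolargin (Prelp), a leucine-rich repeat protein related to Chad, fell 1.69-fold (log2 -0.76, SE 0.16; limma adjusted p = 0.00133). Cilp2, the closest relative of Cilp, was below the limit for dim genes and differed by 0.90 (SE 0.46). Thbs1 (0.08), Thbs3 (0.07) and the Tnmd relative chondromodulin (Cnmd, 0.72) were below it too. A second, dimmer Thbs1 probe set gave -0.55 (SE 0.43).

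**Figure D4:**
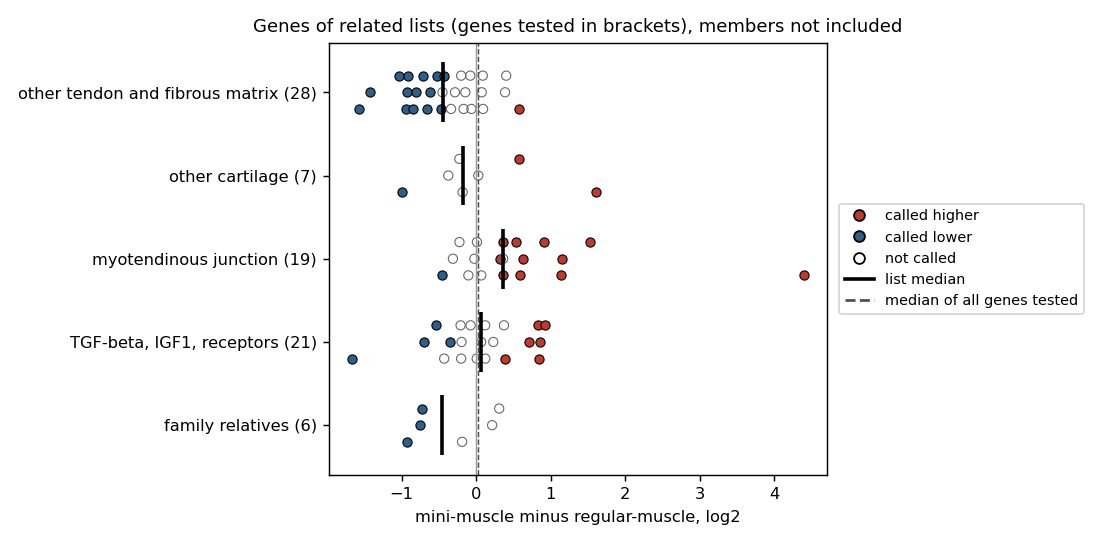
Difference in log2 intensity, mini-muscle minus regular muscle (horizontal axis), of each tested gene of 5 related lists (rows, number tested in brackets), filled red where called higher, blue where called lower and open where not called, with each list's median as a black bar and the median of all genes tested dashed. The tendon and fibrous matrix list is centred at -0.44 with 14 of 28 genes called lower. The row of myotendinous junction and muscle-matrix attachment genes is centred at 0.36 with 11 of 19 called higher.

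Genes of TGF-beta and IGF1 signalling and of matrix receptors, which include ligands and receptors that Cilp or thrombospondins bind as well as Smad proteins that act inside the cell, were called in both directions. Of 25 genes, 21 were tested, and 6 rose, 4 fell and 11 were not called, with a median of 0.07. The shares called over all genes tested were 14.9% higher and 11.8% lower. Igf1, a growth factor that Cilp binds, ran from 9.57 to 10.18 in mini-muscle and from 11.12 to 11.81 in regular muscle. It fell 3.18-fold (log2 -1.67, SE 0.14, limma adjusted p = 1.07e-07). Its other probe sets gave smaller differences of -1.39, -1.17 and -0.36 (SE 0.22 for the last). Tgfbr3, a co-receptor for TGF-beta, fell 1.63-fold (log2 -0.71, SE 0.10; limma adjusted p = 4.75e-05). Itgav, an integrin chain that binds thrombospondins and activates latent TGF-beta, rose 1.82-fold (log2 0.86, SE 0.11; limma adjusted p = 8.66e-06), and Cd36, a thrombospondin receptor and fatty acid carrier, rose 1.78-fold (log2 0.83, SE 0.14; limma adjusted p = 0.000266). With the mean of all probe sets, Tgfbr3 was at -0.40 and Itgav at 0.52, and neither was called (adjusted p = 0.0831 and 0.315). Tgfb1 was below the limit for dim genes, at a difference of 0.86 (SE 0.55), and its other probe set, dim as well, gave 0.07 (SE 0.43). Among the other called genes, named after their values were seen, were Ltbp1 (0.93), Itga9 (0.84), Cd44 (0.71), Tgfb3 (0.39) and Smad3 (-0.54).

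Genes of the myotendinous junction, where the fibre ends meet the tendon, and of the attachment of muscle to matrix were mostly called higher. Of 20 such genes, listed with earlier results of these data known, 19 were tested. Of these, 11 rose, 1 fell and 7 were not called, with a median of 0.36. Over all genes tested, 14.9% were called higher and 11.8% lower. Ankrd1, a stress-responsive protein of the sarcomere and nucleus, rose 21.2-fold, from 9.11 to 10.91 in regular muscle to 14.06 to 14.50 in mini-muscle (log2 4.41, SE 0.26; limma adjusted p = 2.07e-09). Itga7 and Itgb1, the chains of the laminin-binding integrin of the fibre, rose 1.88-fold and 2.19-fold (limma adjusted p = 2.57e-05 and 1.05e-07). Xirp1, an actin-binding protein of the junction, rose 2.89-fold (log2 1.53, SE 0.23; limma adjusted p = 7.02e-05). Col22a1, a collagen made at the junction, rose 2.23-fold (log2 1.16, SE 0.19; limma adjusted p = 0.00019), and a second probe set gave 1.15. Most of these genes are also made along the whole fibre. Col6a1 was the 1 gene that fell (log2 -0.46, SE 0.14; limma adjusted p = 0.0203), but 0 fell without mini-muscle replicate 2 or 5, and 2 fell without mini-muscle replicate 3 or regular-muscle replicate 4.

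Markers of other cells that the muscle holds moved with some of these differences. Of 11 fibroblast markers, 9 were tested and 3 fell, 0 rose and 6 were not called, with a median of -0.45. Their summed level was 15.32 to 15.89 in mini-muscle and 15.93 to 16.53 in regular muscle. That sum rests mostly on its brightest genes, Gsn, Dcn and Col3a1, which are those that fell. All 9 had mean levels of 9.32 or above, over the limit for dim genes of 8.56. Of these, Dcn and Col3a1 (-0.71, SE 0.13; limma adjusted p = 0.000457) are in the tendon list as well. The lists share 4 tested genes, and of the 5 tested fibroblast markers outside the tendon list 1 fell and 0 rose. Of 8 macrophage markers, 5 were tested and 4 fell, Mrc1 by 0.77 and Lyz2 by 0.64 on the log2 scale (limma adjusted p = 0.00365 and 0.0283), with a summed level of 11.94 to 12.41 in mini-muscle and 12.33 to 13.05 in regular muscle. Over all genes tested, 11.8% were called lower. The part of these fibroblast and macrophage shifts in the lower Comp, Thbs4 and Tnmd was not tested.

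The calls in the remaining cell types are set beside the 26.7% called over all genes tested. Synovial lining had 1 of 3 tested markers higher (Tspan15, 0.43, limma adjusted p = 0.0201), with Htra4, Vcam1 and Creb5 below the limit for dim genes on average. Htra4 was left out by its mean of 8.13 alone: it ran from 3.26 to 7.88 in mini-muscle and from 9.83 to 12.11 in regular muscle, without overlap, a difference of -6.08, and did not enter the test across genes. Its values were singled out after they were seen, as were those of Myf5, a satellite cell gene left out in the same way, which ran from 8.57 to 9.53 in mini-muscle and from 7.41 to 8.35 in regular muscle. Bone had 0 of 2 called, with Ibsp, Dmp1, Phex, Mepe and Sost below it, and Schwann cell and perineurium had 0 of 3. Adipocytes had 1 higher (Fabp4, 0.31) and 1 lower (Retn, -0.55) of 3, endothelium 1 higher of 6 (Pecam1, 0.50), smooth muscle and pericytes 1 higher of 5 (Rgs5, 0.23, but -0.11 and not called with the mean of its probe sets) and satellite cells 1 lower of 2 (Chodl, -0.65), with limma adjusted p between 0.0194 and 0.0443. With the mean of all probe sets, Fabp4 (0.17, adjusted p = 0.344), Retn (adjusted p = 0.0576), Pecam1 (0.0706) and the macrophage gene Lyz2 (0.0521) were not called. All red cell genes with a probe set were below the limit. Of the 10 muscle fibre genes, 2 rose and 4 fell, with a list median of -0.15. Among them were Des at 0.85 and Myh4, the heavy chain of the fastest fibres, at -1.33 (limma adjusted p = 2.49e-06 and 8.27e-07). A second probe set gave 0.27 (SE 0.17) for Des and -3.12 for Myh4.

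**Figure D5:**
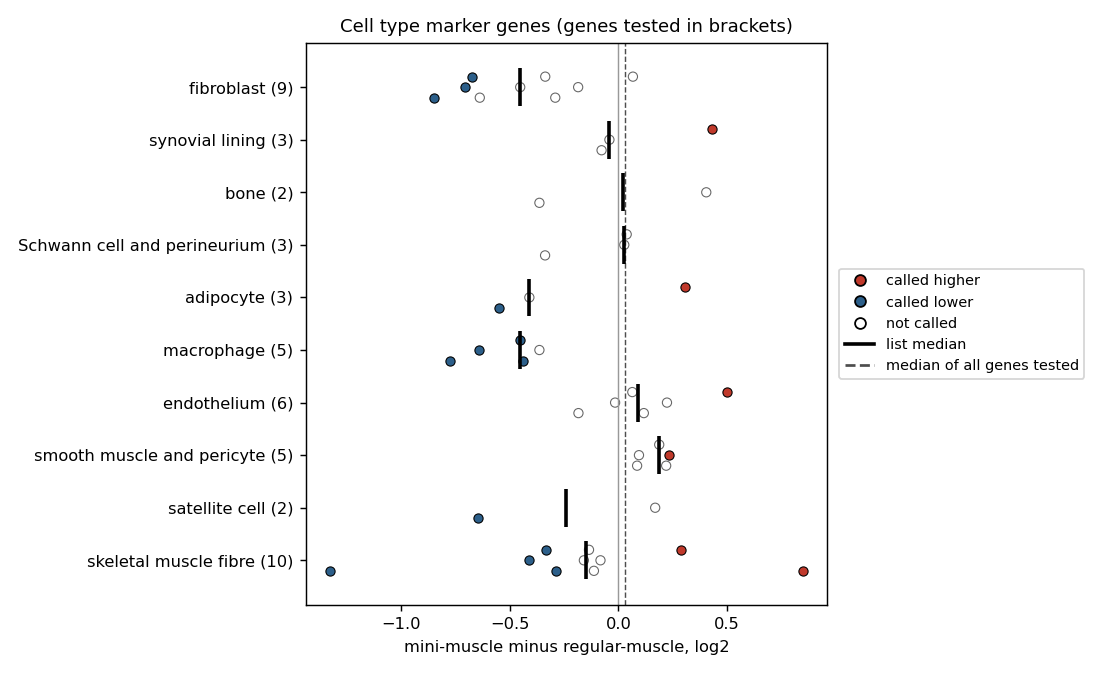
Difference in log2 intensity, mini-muscle minus regular muscle (horizontal axis), of each tested marker gene by cell type (rows, number tested in brackets), filled red where called higher, blue where called lower and open where not called, with list medians as black bars and the median of all genes tested dashed. Fibroblast and macrophage markers are centred at -0.45, and skeletal muscle fibre markers at -0.15.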

How the data were processed

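Gene expression was measured on 12 Affymetrix arrays, 1 per mouse, from 5 µg of total RNA each, extracted with Trizol and a column and labelled as biotinylated cRNA per the labels' protocols. The authors deposited linear MAS5 intensities per the submitters' processing notes; the MAS5 version is not given in the sources used here. With 2% of the probe sets trimmed from either end, the mean of each array was 800.0, so that a common target had been used for scaling, and array medians were 211.9 to 275.2. Such scaling does not fix the shape of an array's distribution. Arrays have no depth, and their number limits the precision.

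Of 45101 probe sets, the platform annotation names 1 gene for 34958, several for 932 and none for 9211; 34754 of the first kind were found in RefSeq GRCm38.p6 and 0 symbols changed. Values were log2-transformed with no offset added. The brightest probe set stood for each of 18194 genes, and the 9097 above the median gene mean (8.56) were tested with limma 3.58.1 in R 4.3.3 (lmFit, eBayes with trend), with Benjamini-Hochberg adjustment and calls under 0.05. Values of the 9 genes' probe sets come from the same fit over all 34958 probe sets. A list's summed level is the log2 of its tested genes' summed intensities, so that its brightest genes weigh most. The fit was tested on simulated data with 100 changes of 1.5-fold and 100 of 2-fold planted among 9097 genes. It called 60% of the former and 86% of the latter, with 10 false calls among 156, so a gene not called may still differ. Replicate numbers are names only, so no arrays were paired.

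The 9 genes and the 16 lists were chosen with earlier results of these data known. Beyond the 9, the text names up to 4 called genes of a list with the smallest adjusted p, 14 textbook partners, the 2 largest called differences of each marker list and the 5 genes most like Cilp and Tnmd; others are said to be named after their values were seen. Alternatives were quantile normalization, median centring, an offset of 64, other dim filters, the mean of all probe sets, no trend, an exact permutation test per gene and each array left out; the likeness without regular-muscle replicate 4 and the counts of relations without it and the counts of the 9 genes under all settings were added after seeing the data.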

Additional observations from a re-analysis of the deposited data

Results flagged for a closer look

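In a group of 6 arrays, a highest or lowest value was singled out when its gap to the nearest other array was a larger share of the group's whole range than Dixon's critical value. This was so for 7 of the 82 groups of values looked at, and chance alone singles out about 1 group in 20. Among the probe sets of the 9 genes it was regular-muscle replicate 4 each time. That array had a Cilp log2 intensity of 13.31, against 11.06 to 11.84 on the other 5 regular-muscle arrays. Its Tnmd was 10.03, against 10.81 to 11.24. Its dimmer Scx probe set was at 4.08, against 7.36 to 7.83, whereas the brighter Scx probe set had that array in the middle of its group.

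Among the other named genes, Itgav was 12.22 on regular-muscle replicate 3, against 11.87 to 11.97 on the other arrays of its group. On mini-muscle replicate 3, Pecam1 was 11.03, against 10.09 to 10.36, and Myh4 was 15.31, against 16.07 to 16.38. Rgs5 was 14.61 on regular-muscle replicate 5, against 14.35 to 14.40.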

How the results depend on the processing

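The Cilp difference was 3.02 to 3.47, Comp -0.90 to -0.78, Thbs4 -0.80 to -0.64 and Tnmd -1.49 to -1.21 with each array left out in turn, and quantile normalization gave 3.15, -0.91, -0.71 and -1.38. Averaging all probe sets of a gene moved most: over all genes 862 were then higher and 681 lower, in the tendon list 9 were lower and 0 higher, and in the cartilage list 1 was higher, as with a stricter filter on dim genes. For the signalling and receptor genes, where the main counts were 6 higher and 4 lower, it gave 2 and 2, and the stricter filter 3 higher. The single tendon gene called higher, Egr1, left a count of 0 under quantile normalization, median centring, no dim filter and no intensity trend, and 0 to 2 with each array left out in turn. Rgs5 turned to -0.11 (limma adjusted p = 0.759) with the mean of all probe sets. Col1a2, Dcn, Itgav and Tgfbr3 lost their calls there (-0.49, -0.16, 0.52 and -0.40), as did Fabp4 (0.17), Retn, Lyz2 and Pecam1, whose differences of -0.55, -0.64 and 0.50 stayed as they were. For 30 named genes under 594 combinations of gene and setting, direction and call were unchanged in 533, the call was lost in 60 and the direction turned in 1; the cause was not tested. No paired analysis was possible because the labels give the groups no shared replicate numbers. Relations between the 9 genes gave 0 adjusted p under 0.05 after quantile normalization too. Phenotype, line and limb pooling cannot be told apart, the limit for dim genes stands in for detection calls, which were not used here, and replicates are single animals of 1 line per phenotype.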
